A study of Caenorhabditis elegans with 2 samples.

Results

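Brush border and intestinal filament genes, as taken here, are 10 genes of Caenorhabditis elegans. They code for proteins of the apical face of the intestinal cell: actin, an actin-capping protein, the membrane linker, intermediate filaments and a filament organizer. They are act-5, erm-1, eps-8, ifb-2, ifc-1, ifc-2, ifd-1, ifd-2, ifp-1 and ifo-1, which make up 10 of the 19973 protein-coding genes on the nuclear chromosomes. They were listed by name and not by any measured value, but were chosen with earlier results of these data known. The counts below are therefore descriptions of a chosen list. Every ELT-2 peak with its summit inside such a gene or within 5000 bp of it was collected, on the genome build ce11 with the Ensembl annotation of WBcel235. Peaks were first filtered for reproducibility by the irreproducible discovery rate (IDR), a measure of how alike 2 replicates rank a peak. The filtered list holds 5443 peaks, called thresholded peaks below, of which 29 lie at these genes.

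The study mapped the binding of ELT-2 by chromatin immunoprecipitation and sequencing (ChIP-seq). A single group was studied, in 2 biological replicates, with no comparison of conditions. The worms were hermaphrodites of strain OP56, genotype unc-119(ed3) III; wgIs56, which stably express ELT-2 with a GFP-FLAG tag at its C-terminal end, and both the unc-119 mutation and the transgene are thus common to all samples. They were L1 larvae, starved for synchronization after bleaching and taken 6 h later. Chromatin came from whole animals and was precipitated with an antibody against GFP, per the description of the samples, while their antibody label names elt-2, the tagged protein. The peaks may therefore come from any cell that makes the tagged protein. The labels give neither the promoter of the transgene nor whether the native elt-2 gene was present, and no untagged strain was analysed here. The files list peaks and no reads, so the depth of each replicate is unknown. The relaxed lists, which were the input of the IDR procedure, comprised 17177 peaks in replicate 1, 18929 in replicate 2 and 16833 when both were pooled.

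The intestine of the worm is a tube of large epithelial cells whose apical face carries a brush border of microvilli, each built on a bundle of actin filaments. Beneath the microvilli lies the terminal web, and below it a dense belt of intermediate filaments, the endotube, which is anchored at the apical junctions and gives the lumen its mechanical strength. ELT-2 is a GATA-type zinc finger protein that is made in the intestine from the embryo to the adult and directs much of the gene expression there. GATA factors take their name from the bases they bind, and ELT-2 is known for the hexamer TGATAA, which reads TTATCA on the other strand.

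The sequences at the summits show what the peaks of these genes have in common and where they differ. Each is 101 bases of the RefSeq sequence of WBcel235 (ce11), centred on the summit and printed on the strand of the gene, with every TGATAA or TTATCA in capitals. The 7 shown here are the upstream peaks nearest to the 5′ end of act-5, ifb-2, ifc-1, ifd-1, ifd-2, ifp-1 and ifo-1. They were picked after their positions were seen, because their summits lie in a narrow band from 178 to 310 bp upstream. None of the windows overlaps an annotated UTR or coding sequence.
act-5, chrIII:13606251-13606351, minus strand: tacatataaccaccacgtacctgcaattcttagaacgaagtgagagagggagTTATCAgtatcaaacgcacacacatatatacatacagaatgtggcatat
ifb-2, chrII:5749915-5750015, plus strand: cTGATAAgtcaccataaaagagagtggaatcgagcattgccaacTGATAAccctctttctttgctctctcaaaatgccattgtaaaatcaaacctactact
ifc-1, chrV:2881165-2881265, plus strand: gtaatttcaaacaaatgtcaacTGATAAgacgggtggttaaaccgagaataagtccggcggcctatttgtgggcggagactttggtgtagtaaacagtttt
ifd-1, chrX:8824595-8824695, minus strand: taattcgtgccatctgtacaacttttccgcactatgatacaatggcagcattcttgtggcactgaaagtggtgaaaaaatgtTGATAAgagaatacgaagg
ifd-2, chrX:816065-816165, minus strand: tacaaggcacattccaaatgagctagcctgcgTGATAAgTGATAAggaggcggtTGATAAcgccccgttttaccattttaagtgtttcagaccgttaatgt
ifp-1, chrX:9680353-9680453, minus strand: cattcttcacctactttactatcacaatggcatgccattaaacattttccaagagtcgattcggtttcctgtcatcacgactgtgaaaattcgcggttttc
ifo-1, chrIV:7326923-7327023, minus strand: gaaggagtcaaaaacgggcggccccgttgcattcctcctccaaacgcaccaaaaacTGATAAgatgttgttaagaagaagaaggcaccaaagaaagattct

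The hexamer stands in 6 of these 7 windows. In ifd-2 it stands 3 times on the strand of the gene, with starts 7 and 15 bases apart, and in ifb-2 it stands 2 times, 43 bases apart. The window of ifp-1 holds no TGATAA. It does hold ctatca, the other strand of TGATAG, a related GATA hexamer. A further 2 windows are shown because they belong to the strongest peak of all 10 genes, upstream of ifb-2, and to the strongest peak of eps-8, which has no TGATAA within 50 bp of its summit.
ifb-2, chrII:5748558-5748658, plus strand: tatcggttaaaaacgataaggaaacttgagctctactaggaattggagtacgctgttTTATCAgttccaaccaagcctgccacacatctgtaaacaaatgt
eps-8, chrIV:14875102-14875202, plus strand: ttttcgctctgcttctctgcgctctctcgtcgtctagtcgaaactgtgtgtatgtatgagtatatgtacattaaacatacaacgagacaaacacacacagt

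All 10 genes had a thresholded summit inside the gene or within 5000 bp, a property shared by 45.8% of all protein-coding genes. Of the 10, 9 had at least 2 such summits, against 20.3% of all genes, and 4 had at least 4, against 2.98%. The median was 2.5 summits per gene, compared with 0 over all genes and 1 over the genes with any. The listed genes are longer than most, with a median length of 4125 bp against 2027 bp, and the part of length in these counts was not tested. Counting only summits inside the gene left 7 of 10, against 7.27% of all genes. A promoter is taken here to reach from 1000 bp before a transcript's 5′ end to 200 bp after it. Summits fell in a promoter for 9 of the 10 genes, and for 17.0% of all genes. The exception was erm-1. For eps-8 and ifc-2, which have several 5′ ends, the promoter summits lay at internal 5′ ends only. The part of the number of 5′ ends was not tested. Narrowing the promoter to 500 bp before and 100 bp after the 5′ end left 8 genes, against 13.2% of all, and widening it to 3000 and 500 bp gave 9, against 25.2%. With each summit given to the owner of the nearest 5′ end within 1000 bp, 9 genes had one, against 15.1%. Among the 2721 strongest thresholded peaks, 8 genes had a promoter summit, against 8.86%. In these counts eps-8 dropped out with erm-1 where 8 remained.

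**Figure D1:**
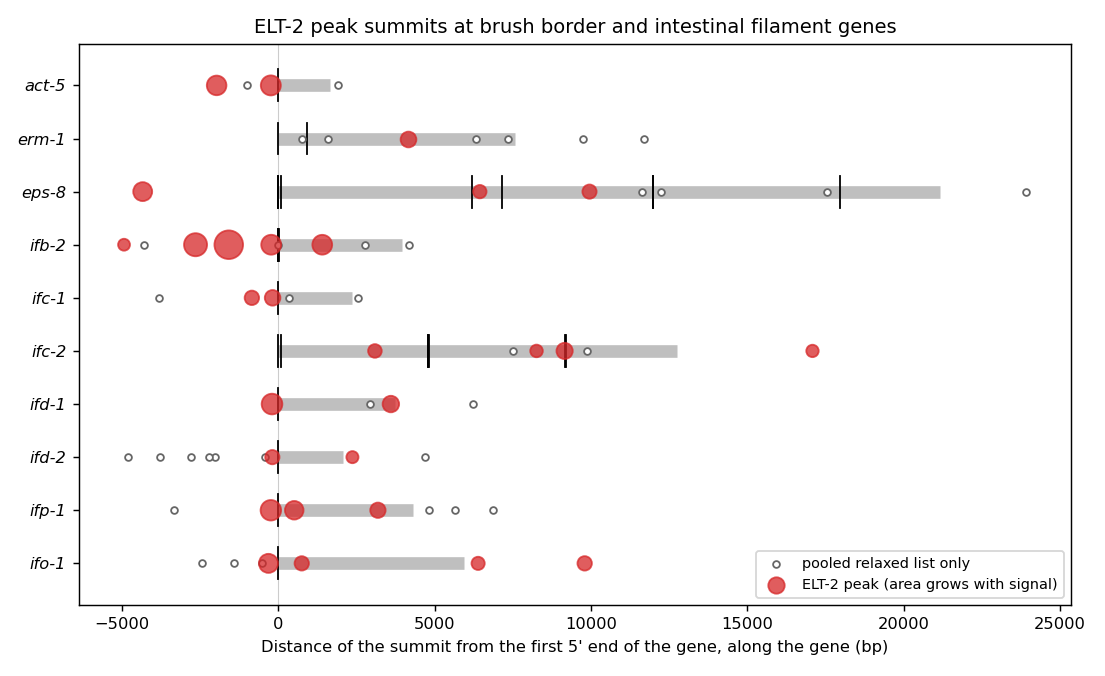
Positions of ELT-2 summits along each gene, in bp from its first 5′ end in the direction of transcription; grey bars are gene bodies, black ticks transcript 5′ ends, filled points 28 of the 29 thresholded peaks with area growing with signal, and open points peaks in the relaxed pooled list alone. For 7 genes a filled point sits just left of the first 5′ end, while the filled points of erm-1 and ifc-2 lie inside the gene or downstream of it.

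Each peak carries a signal, the enrichment statistic of the authors' peak caller, which ranks peaks within a list only and is not comparable between the replicate and pooled lists. Rank 1 is the strongest peak of a list. The strongest peak of each listed gene had a median rank percentile of 87.7 in the thresholded list, with a range of 51.5 to 99.4, where 100 is the top. Over the 9155 genes with any such peak the median was 62.0. Of the 29 peaks, 12 were in the strongest 1000 of the list, or 41.4% compared with 18.4% of all thresholded peaks.

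The actin of the microvilli is ACT-5, an isoform made in the intestine and a few other tubular cells. Its gene (WBGene00000067, chromosome III, 13604412 to 13606066, minus strand) had 2 thresholded peaks, both upstream. The nearer one had its summit 235 bp from the single 5′ end, with a signal of 399.7 in replicate 1, 224.8 in replicate 2 and 617.8 in the pooled list. Its rank was 335 in replicate 1 and 752 in replicate 2, so that it stood higher in replicate 1. The farther summit lay 1968 bp upstream, with signals of 288.6 in replicate 1, 295.4 in replicate 2 and 588.7 in the pooled list. Here the order was turned around, with rank 803 in replicate 1 and 393 in replicate 2. This summit is 14 bp inside shpk-1, a gene that points the other way across a gap of 1953 bp, and it counts for act-5 by distance alone. Each window held TGATAA, in 1 copy at the nearer summit and 2 copies at the farther.

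ERM-1, the only ezrin-radixin-moesin protein of the worm, ties the apical membrane to the actin beneath it. The gene (WBGene00001333, chromosome I, 5284026 to 5291604, minus strand) had 1 thresholded peak, the fewest of the 10. Its summit lay in coding sequence of exon 6, 3236 bp downstream of the 5′ end of the shorter transcript and 4146 bp downstream of that of the longer. The signal was 196.7 in replicate 1, 134.7 in replicate 2 and 337.7 in the pooled list. The ranks of 1643 and 1957 were alike between the replicates, but the replicate summits lay 46 bp apart. The replicate 2 summit fell in intron 6 and had no TGATAA within 50 bp, while the pooled and replicate 1 summits had 1 copy. Nearer the start, only the relaxed lists held a summit, 150 bp upstream of the shorter transcript, with a pooled signal of 107.9 and pooled rank 7192. All 10 genes had a relaxed summit within 5000 bp, against 75.6% of all genes in the pooled list, 77.2% in replicate 1 and 79.5% in replicate 2. In the relaxed lists all 10 genes, erm-1 included, had a promoter summit, against 33.8% of all genes in the pooled list, 34.2% in replicate 1 and 35.4% in replicate 2.

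EPS-8 caps and bundles the actin filaments at the tips of microvilli. The gene (WBGene00001330, chromosome IV, 14879484 to 14900653, plus strand) is the longest of the 10, with 12 annotated transcripts and 8 distinct 5′ ends, and had 4 thresholded peaks spread over 14288 bp. The strongest lay 4332 bp upstream of the first 5′ end, with signals of 297.0 in replicate 1, 243.2 in replicate 2 and 540.6 in the pooled list. The replicates ranked it alike, at 749 and 640. The peak that counts as a promoter peak was the weakest of the gene, 245 bp downstream of the 5′ end of 2 transcripts and 716 bp upstream of that of another 2, with signals of 136.5, 78.05 and 210.4 in the same order. Another peak, in an intron and 2024 bp upstream of another internal 5′ end, had signals of 154.4, 97.8 and 251.2 and lay 347 bp from a tRNA gene. The strongest peak had no TGATAA within 50 bp of the summit, with the nearest copy centred 70.5 bp away, while these weaker 2 had 1 copy each.

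The filament proteins come next. IFB-2 is an intestinal intermediate filament protein of the endotube, and its antibody staining is widely used to show that structure. Its gene (WBGene00002054, chromosome II, 5750188 to 5754140, plus strand) had 5 thresholded peaks, the most of the 10, and the strongest peak of all of them. That summit lay 1580 bp upstream, with a signal of 755.1 in replicate 1, 636.7 in replicate 2 and 1389 in the pooled list. It ranked 40 in replicate 1, 33 in replicate 2 and 36 in the pooled list, so that every list placed it near the top. The summit 2642 bp upstream had signals of 516.1 in replicate 1, 356.0 in replicate 2 and 859.7 in the pooled list, at rank 167 and 234 in the replicates. The summit 223 bp upstream had signals of 314.8, 288.7 and 609.1 in the same order, and that in intron 2, 1398 bp downstream, had 296.0, 307.1 and 601.6. These 4 peaks were thus all in the strongest 1000 of the thresholded list. The last, 4929 bp upstream, had a pooled signal of 142.2 and rank 5442, next to the end of the list, and lay 25 bp inside the divergent neighbour F10C1.9. All 5 summits had TGATAA within 50 bp.

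IFP-1 and IFD-1 are further intestinal filament proteins, and each of their genes had a strong peak close to its 5′ end. At ifd-1 (WBGene00002057, chromosome X, 8820703 to 8824448, minus strand) the summit lay 197 bp upstream, with signals of 375.9 in replicate 1, 299.7 in replicate 2 and 668.2 in the pooled list. Ranks of 409 and 382 put it at nearly the same place in both replicates. The other peak of ifd-1 lay in exon 11, in the 3′ UTR, 588 bp from a tRNA gene, with signals of 215.3, 156.1 and 383.2, and no TGATAA stood anywhere in it. At ifp-1 (WBGene00002067, chromosome X, 9675873 to 9680169, minus strand) the upstream summit lay 234 bp from the 5′ end, with signals of 322.7 in replicate 1, 333.2 in replicate 2 and 655.7 in the pooled list. It ranked higher in replicate 2, at 283, than in replicate 1, at 608. A peak in intron 2, 514 bp downstream, had signals of 314.7, 210.9 and 517.0, and a weaker one in intron 6 had 184.3, 122.6 and 313.7. Of the 3 ifp-1 summits, only the weakest had TGATAA within 50 bp, and at the others the nearest copies were centred 98.5 and 85.5 bp away.

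IFC-1, IFC-2 and IFD-2 complete the filament proteins of the endotube. The genes ifc-1 (WBGene00002055, chromosome V, 2881393 to 2883753, plus strand) and ifd-2 (WBGene00002058, chromosome X, 813854 to 815929, minus strand) had weaker peaks at their 5′ ends. For ifc-1 the summit 178 bp upstream had signals of 207.8 in replicate 1, 131.7 in replicate 2 and 329.1 in the pooled list. A neighbouring summit 841 bp upstream had 133.0, 132.5 and 264.1, and is nearer to the divergent gene str-39, 651 bp away. For ifd-2 the summit 186 bp upstream, the one with 3 hexamers, had signals of 141.1, 112.5 and 255.3. This was the lowest value for the strongest peak of any listed gene in all 3 lists, so that the summit with the most hexamers was not a strong one. The other ifd-2 peak, 2375 bp downstream of the 5′ end and 391 bp upstream of F25E2.3, was the least alike between replicates, with rank 3562 in replicate 1 and 11304 in replicate 2, and summits 100 bp apart.

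At ifc-2 (WBGene00002056, chromosome X, 642156 to 654904, minus strand), with 7 transcripts and 7 distinct 5′ ends, no thresholded summit stood at the outermost 5′ ends. The strongest of its 4 peaks lay 20 bp upstream of an internal 5′ end, within intron 13 of the transcript that starts farthest upstream. Its signals were 161.9 in replicate 1, 206.5 in replicate 2 and 367.0 in the pooled list. Its rank was 2266 in replicate 1 and 919 in replicate 2, a 2.47-fold difference. The others lay in intron 3, in coding sequence of exon 12 and downstream of the gene, with pooled signals of 223.5, 173.2 and 163.6. The downstream one is 824 bp upstream of pha-2, a pharyngeal homeobox gene. All 4 summits had TGATAA within 50 bp.

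IFO-1 organizes the intestinal filaments and holds them at the apical face. Its gene (WBGene00018350, chromosome IV, 7320734 to 7326663, minus strand) had 4 thresholded peaks. The strongest lay 310 bp upstream, with signals of 296.1 in replicate 1, 231.2 in replicate 2 and 549.9 in the pooled list, at ranks 755 and 717 in the replicates. One in intron 2, 754 bp downstream, had signals of 125.5, 136.5 and 259.7. The remaining 2 lay past the end of the gene, with pooled signals of 263.8 and 201.7. The former is in an intron of F42C5.9, 8 bp from the snRNA gene F42C5.12. Only the upstream and intron 2 summits of ifo-1 had TGATAA within 50 bp, and neither downstream peak had a copy anywhere.

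The position of the upstream peaks was alike across genes of different size and strand. A summit 170 to 320 bp upstream of a 5′ end was found for 7 of the 10 genes, against 4.65% of all protein-coding genes, or 27.3% of those with a promoter summit. These bounds were drawn around the members after their positions were seen, so the count of 7 is a description. For the 9 genes with a promoter summit, the strongest had a median distance of 223 bp upstream, and over all 3401 genes with such a summit the median was 214 bp. The listed genes therefore sat at the usual distance.

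Just inside the limit of 5000 bp were the ifb-2 summit 4929 bp away, an ifc-2 summit 4339 bp away with a signal of 163.6, and the eps-8 summit 4332 bp away. Just outside were summits 5516 bp from eps-8, with a signal of 154.1, 5660 bp from ifb-2, with 630.5, and 5817 bp from ifc-1, with 251.2. The limit thus divides peaks of like strength. Of the 29 peaks, 20 had the listed gene as the owner of the nearest protein-coding 5′ end, and 9 were nearer to another gene. By place, 15 summits were in a promoter of some gene, or 51.7% against 56.5% of all thresholded summits. A further 8 were in introns, or 27.6% against 15.1%, 2 in exons, or 6.90% against 4.68%, and 4 between genes, or 13.8% against 23.7%. Within 1000 bp of a tRNA, snRNA, snoRNA or rRNA gene lay 3 of the 29, or 10.3%, compared with 7.00% of all.

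TGATAA on either strand lay wholly within 50 bp of the summit in 22 of the 29 peaks, or 75.9% with a 95% Wilson interval of 57.9 to 87.8%. Over all thresholded peaks the share was 45.0%. Neighbouring peaks of a gene are not independent, and the interval covers counting error only. In windows of the same width 500 bp to the left of the summits the share was 1 of 29, against 10.4% over all peaks, and 500 bp to the right it was 4 of 29, against 9.90%. Windows of this width centred 214 bp upstream of the first 5′ end, the median distance of promoter summits, held the hexamer for 2193 of the 19973 protein-coding genes. Within 25 bp of the summit the count was 14 of 29, against 27.1% of all thresholded peaks, and within 100 bp it was 25 of 29, against 59.8%. With either A or T allowed before GATA and either A or G after it, a motif of which TGATAA is a part, the count was 23 of 29, or 79.3%, against 57.7%. No copy of TGATAA in the whole peak was found for 3 of 29, against 32.0% of all thresholded peaks.

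Among the 12 peaks in the strongest 1000 of the list, 8 had TGATAA within 50 bp, and over the strongest 1000 as a whole the share was 55.6%. Of the 4 without it, 2 were at eps-8 and 2 at ifp-1. The 22 summits with the hexamer held 26 copies, of which 19 were on the strand of the gene, or 73.1%. Over all pairs of a gene and a nearby thresholded summit, 49.4% of 9661 copies were on the strand of the gene. Copies in the same window are not independent, and 3 of the 19 came from the ifd-2 window 186 bp upstream. The strand is that of the listed gene, also at summits nearer to another gene. The difference in strand was not tested. A G followed the hexamer in 15 of the 26 copies, or 57.7%, against 45.6% of the 3473 copies within 50 bp of all thresholded summits.

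**Figure D2:**
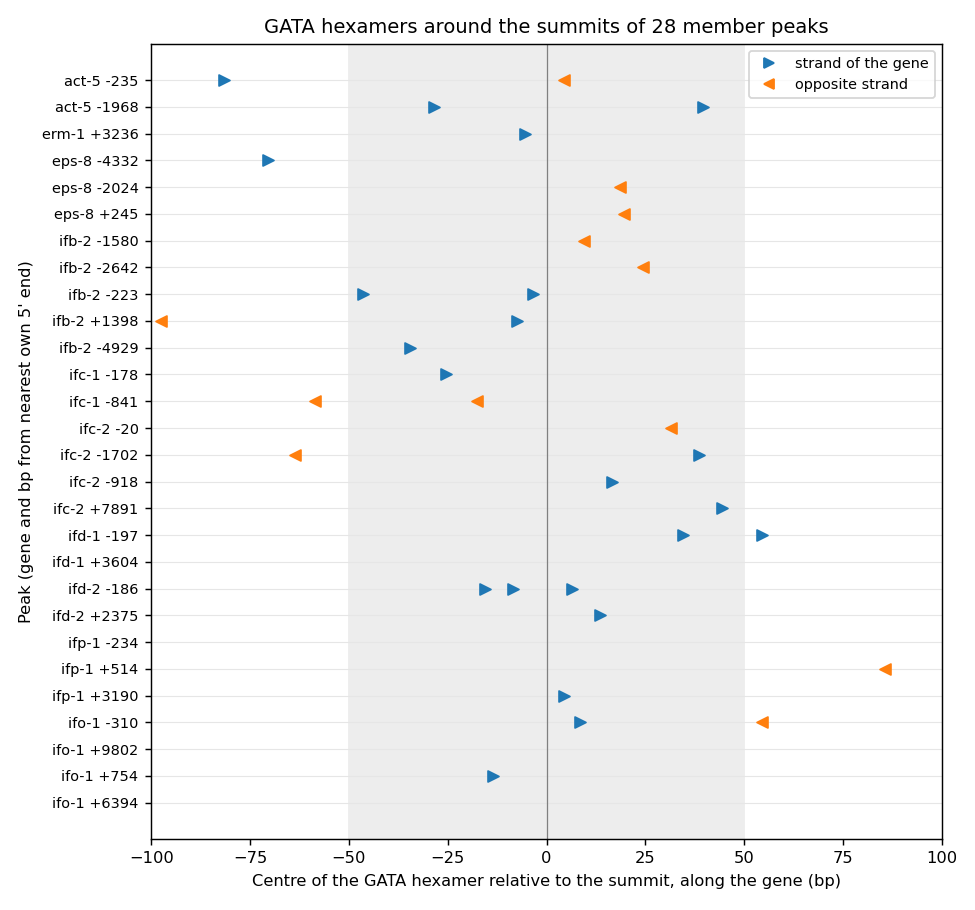
Centre of each TGATAA relative to the summit, in bp along the gene, for 28 of the 29 thresholded peaks, with right-pointing triangles for the strand of the gene and left-pointing ones for the other strand; the grey band is 50 bp to each side. Most triangles lie inside the band, and 3 of them share it at ifd-2.

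Replicates were compared by rank, since their signals are on different scales. Of the 29 peaks, 27 were among the 5443 strongest peaks of both replicates, or 93.1% with a Wilson interval of 78.0 to 98.1%, compared with 84.9% of all thresholded peaks. The exceptions were the ifb-2 peak 4929 bp upstream and the downstream ifd-2 peak. Since the IDR filter had already kept peaks that these replicates rank alike, a high share follows in part from that filter. The interval covers counting error only. Replicate 1 gave the better rank for 16 peaks and replicate 2 for 13. Ranks differed more than 2-fold for 6 of 29 peaks, or 20.7%, against 8.80% of all. These shares were not compared at like ranks, and 41.4% of the 29 were in the strongest 1000, against 18.4% of all. The 6 were both act-5 peaks, the intron 2 peak of ifb-2, the strongest ifc-2 peak, the upstream ifp-1 peak and the downstream ifd-2 peak. Summit positions differed between replicates by a median of 14 bp, against 15 bp over all thresholded peaks.

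**Figure D3:**
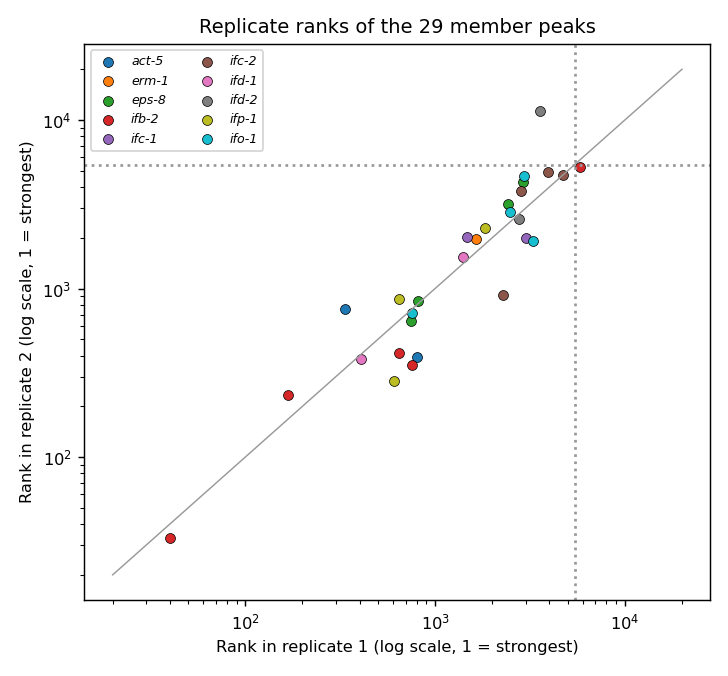
Rank of each of the 29 thresholded peaks in replicate 1 and replicate 2, on log axes where 1 is the strongest, coloured by gene; the solid line marks equal ranks and the dotted lines rank 5443. Most points follow the line, the ifb-2 peak 1580 bp upstream is at the lower left, and the downstream ifd-2 peak stands apart at rank 11304 in replicate 2.

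The order of the genes by their strongest thresholded peak was ifb-2, ifd-1, ifp-1, act-5, ifo-1, eps-8, ifc-2, erm-1, ifc-1 and ifd-2 in the pooled list. In both replicates ifb-2 was first and ifd-2 last. Between them the order was not fixed, since act-5 was at place 2 in replicate 1 and its same peak at place 6 in replicate 2, and ifp-1 was at place 4 in replicate 1 and place 2 in replicate 2. The neighbours ifd-1, ifp-1 and act-5, with pooled ranks of 402, 419 and 487, changed places between replicates and are not separated by these data. The same holds for erm-1, ifc-1 and ifc-2, with pooled ranks of 1684, 1758 and 1467.

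**Figure D4:**
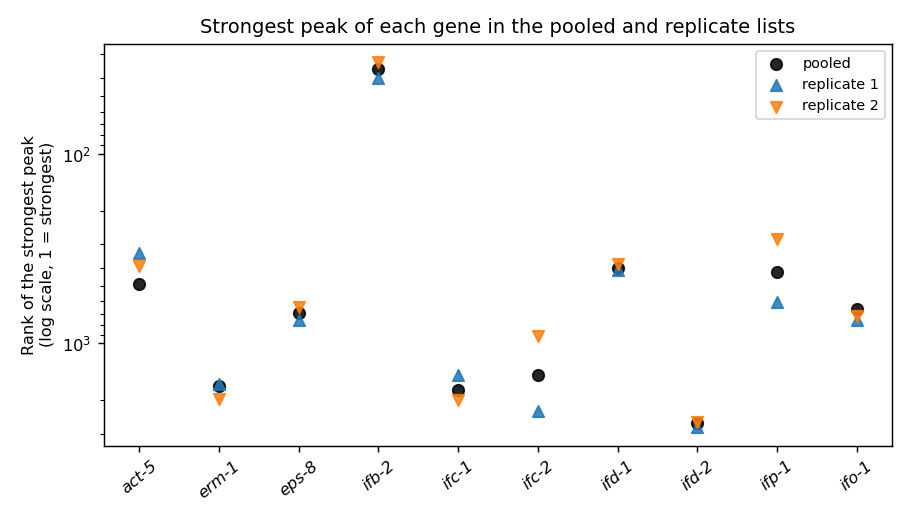
Rank of the strongest peak near each gene in the pooled and replicate lists, on a log axis with the strongest at the top; for act-5 and ifc-1 the strongest peak of replicate 2 is the farther upstream one. The 3 lists place ifb-2 near rank 36 and ifd-2 near rank 2641, while ifc-2 and ifp-1 show wide gaps between replicates.

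Below the threshold, the pooled list held another 37 peaks inside or within 5000 bp of the 10 genes. Of these, 10 had TGATAA within 50 bp of the summit, or 27.0%, compared with 16.3% of the 11390 pooled peaks that did not pass. The share was lower than in the thresholded peaks both for the listed genes and for all.

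Genes with related products were set beside the list. Of 5 other cytoplasmic intermediate filament genes, ifa-1, mua-6, ifa-3, ifa-4 and ifb-1, which are known mainly from the epidermis, pharynx and other tissues, 4 had a thresholded summit within 5000 bp. None had a promoter summit, while all 6 intestinal filament genes of the list did. Over all protein-coding genes the shares were 45.8% within 5000 bp and 17.0% in a promoter. At the latter share few of 5 genes would have a promoter summit. The strongest peak near any of the 5 was at mua-6, with a pooled signal of 228.3, lower than the strongest peak of each listed gene. Of 4 other actin genes, 2 had a promoter summit, against the same 17.0% of all genes. They were act-1, 209 bp upstream with a signal of 514.1, and act-2, 302 bp upstream with 390.7. Stronger summits lay within 5000 bp of act-1, with a signal of 1251 and rank 51, and of act-3, with a signal of 1006 and rank 119. Both exceeded the strongest act-5 peak, and each was nearer to the 5′ end of another gene, Y42A5A.1 and T04C12.8 respectively. The actin genes act-1 to act-3 are clustered, so that some summits count for several of them. The summit at rank 1313 lay within 5000 bp of each of them. Those at ranks 51 and 119 lay within 5000 bp of act-1 alone and act-3 alone among the actin genes. For act-4 there was none within 5000 bp.

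Of 21 other genes of the cortical actin and terminal web cytoskeleton, 12 had a promoter summit, against 17.0% of all protein-coding genes. A promoter summit was thus not particular to the listed genes. The strongest was at bbln-1, which codes for a small coiled-coil protein of the endotube, with the summit 866 bp upstream, a signal of 822.0 and rank 227. Next came cap-2, an actin capping protein subunit, at 227 bp with a signal of 537.2, wve-1, a WAVE complex protein, at 620 bp with 477.1, and nfm-1, the merlin homologue, at 223 bp with 452.3. The other 8 had lower signals. At the strongest promoter summit, TGATAA lay within 50 bp for 4 of these 12 genes and for 8 of the 9 listed genes with such a summit, against 39.1% of all genes with a promoter summit. The listed gene without it was ifp-1.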

How the data were processed

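Chromatin immunoprecipitation of tagged ELT-2 was sequenced from 2 biological replicates, per the labels. Per the accompanying deposited notes, a relaxed peak list was made for each replicate with a control, a pooled list from both, and the IDR-thresholded list from these. No aligner, peak caller, IDR threshold or version is stated in the labels or notes used here. The signal of each peak is the authors' deposited enrichment statistic, used only for ranks inside its own list. The authors also deposited a −log10 q-value per peak, which reaches a ceiling and was left aside. Lists on ce10 were not used. A further eps-8 peak enters the counts but is not reported on its own here. Files hold no read counts, so depth is unknown, and Wilson intervals reflect only counting error.

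Positions count from 1 on ce11. Summits were assigned with 5′ ends, exons and introns of Ensembl release 115, and by category first to promoter, then exon, intron and intergenic sequence. The hexamer was sought on both strands within 50 bp of summits and in windows 500 bp away. Shares over all 19973 genes or 5443 peaks stand beside the main counts, and were not computed for every alternative. No test was made, since there is 1 group.

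All 10 genes are named, with the owner of the nearest 5′ end where it is another gene and is described, and up to 4 genes with a promoter summit per comparison list by signal. Further genes of the comparison lists (mua-6, ifa-1, ifa-3, ifa-4, ifb-1, act-3 and act-4) are named because their lists are short. The symbol tmd-1 did not match the annotation. The members and lists were chosen with earlier results of these data known. The programs were tested on simulated data. Alternatives were other distances, windows, motifs and lists, and each replicate left out. Scripts ran in Python 3.11.15 with pandas 2.3.3, NumPy 2.4.6, matplotlib 3.10.9 and SciPy 1.17.1.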

Additional observations from a re-analysis of the deposited data

How the results depend on the processing

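Of 27 alternatives over 5 results, 20 left the value within its set tolerance and 7 moved it. The tolerance for counts was wide, since 7 genes against 10 stayed within it. For shares it was the Wilson interval, and for the median percentile the standard deviation between replicate medians, 0.56. The relaxed pooled list holds every thresholded peak of these genes, so the gene counts could not fall there. All 10 genes kept a summit within 5000 bp under every alternative except the stricter count of summits inside the gene, which left 7. Promoter summits were found for 8 to 10 genes, with eps-8 and erm-1 lost with the narrower promoter window and among the 2721 strongest thresholded peaks. The share of peaks with TGATAA was 48.3% within 25 bp, against 27.1% of all thresholded peaks, and 86.2% within 100 bp, against 59.8%. It was 65.5% at the summits of either replicate alone, 77.3% for peaks within 1000 bp of the gene, and 75% for the 20 peaks nearest to the listed gene, an alternative added after seeing the data. No share over all thresholded peaks was computed beside these last values. The share among the strongest peaks of both replicates was 58.6% with lists of 2721 peaks and 100% with the whole relaxed lists, which follows from list length. The median rank percentile of 87.7 became 95.6 to 96.4 with 1 replicate left out and 96.0 in the relaxed pooled list, which are longer lists. It became 86.2 within 1000 bp, which leaves out farther peaks. No paired analysis was possible because there is 1 group and no test. Depth is unknown, so weak peaks, including that at the erm-1 5′ end, cannot be called absent. Whole worms were used, without reads or an untagged strain, so signals cannot be assigned to cells.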
